A study of Homo sapiens with 12 samples.

Results

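The ADAM and ADAMTS proteases were followed in prostate cells in which the transcription factor ERG had been raised or targeted. All probes annotated to 10 genes (ADAM8, ADAM9, ADAM12, ADAM15, ADAM17, ADAM19, ADAMTS1, ADAMTS4, ADAMTS5 and ADAMTS9) were taken, out of 17262 gene symbols on the arrays. These were 11 of the 20589 probes measured in RWPE1 and 14 of the 24525 probes measured in VCaP. The genes were chosen with earlier results of these data known. Their counts beside the shares of all probes therefore describe the list and test nothing. RWPE1, an immortalised prostate epithelial line that does not derive from a tumour, was grown in KSFM medium, received a GFP or a GFP-ERG construct and was harvested at 48 h or 72 h. VCaP, from a prostate cancer with the TMPRSS2-ERG fusion, was grown in RPMI medium, received a lentiviral scramble shRNA or ERG shRNA, and was then selected with puromycin, so both VCaP groups share virus and selection. Each of the 6 groups had 2 arrays, and the labels say that transfections were duplicated. The labels do not give the promoter of the constructs, the share of cells transfected or the number of clones. The RNA came from whole cultures, in which a signal from more cells and a signal from more RNA per cell cannot be told apart.

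ADAM proteins are membrane-anchored metalloproteinases with a disintegrin domain, and the catalytically active ones release the extracellular parts of growth factors, cytokines and adhesion molecules from the cell surface. ADAMTS proteins lack the membrane anchor, carry thrombospondin repeats and are secreted into the matrix, where several of them cut proteoglycans such as aggrecan and versican. Both groups are made as inactive precursors and are held in check by tissue inhibitors, of which TIMP3 acts most broadly on them. In the prostate, shed epidermal growth factor receptor ligands and versican-rich stroma have been studied as their targets.

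Whole-table checks came first. In RWPE1, the ERG probe for the transcript NM_182918 read 6.30 and 6.43 with GFP at 48 h against 7.33 and 7.29 with GFP-ERG. At 72 h it read 6.36 and 6.25 with GFP against 6.93 and 6.94 with GFP-ERG. It was higher with GFP-ERG by 0.95 at 48 h (adjusted p = 2.049e-09) and by 0.63 at 72 h (adjusted p = 1.063e-06, limma). The other ERG probe, for NM_004449, differed by -0.02 over both times (adjusted p = 0.8875). In VCaP, the ERG signal went against the label. The brightest ERG probe read 8.71 and 8.77 on the arrays labelled ERG shRNA and 8.35 and 8.33 with scramble, which was 0.40 higher under the knockdown label (adjusted p = 0.03959). That adjusted p ranged from 0.03252 to 0.3261 over the alternative settings, and the other ERG probes differed by -0.01 and -0.04. Directions in VCaP below therefore refer to the label and not to a measured loss of ERG. Of the basal keratins, KRT5 and KRT14 lay at the 99.2nd and 99.6th percentile of all probes in RWPE1 and KRT15 at the 51.1st. The luminal keratins KRT8 and KRT18 (brighter probe) also lay high there, at the 91.4th and 83.4th, while KLK3, TMPRSS2 and HOXB13 lay between the 20.3rd and 30.4th. In VCaP the basal keratins lay between the 8.99th and 34.2nd percentile, and the luminal genes TMPRSS2 and HOXB13 at the 98.4th and 91.3rd. KRT8 lay there at the 82.9th and KRT18 (brighter probe) at the 71.5th, both below their places in RWPE1, and KLK3 at the 74.55th. The VCaP pair labelled ERG shRNA stood apart in its spread, with 138 probes differing by more than 2-fold between its arrays, against 4 in the scramble pair and 0 or 1 in each RWPE1 pair. None of those probes belonged to the 10 genes, but the brightest ADAM15 probe came close, with 10.86 and 11.84 on the labelled ERG shRNA pair.

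ERG binds DNA through the ETS core GGAA, and promoters of 5 of the 10 genes (ADAM8, ADAM12, ADAM15, ADAM17 and ADAM19) were found in the RefSeq promoter table of GRCh38.p14. The windows run from 250 bases before to 50 bases after the gene start. They were searched on both strands for the letters CGGAAG and AGGAAG. Matches can share end bases with each other, but each has its own GGAA. Of 35116 promoters, 19.5% held CGGAAG, 33.6% held AGGAAG and 46.9% held either. The shorter core GGAA occurred in 95.5%. The promoters of ADAM19 and ADAM17 are shown because ADAM19 was the only membrane ADAM of the 10 that rose with GFP-ERG and because ADAM17 held the most hexamer matches of the 5. Both are given on the minus strand, 5′ to 3′, with hexamer matches in capitals.
ADAM19 promoter (GRCh38.p14, chr5:157575726-157576025): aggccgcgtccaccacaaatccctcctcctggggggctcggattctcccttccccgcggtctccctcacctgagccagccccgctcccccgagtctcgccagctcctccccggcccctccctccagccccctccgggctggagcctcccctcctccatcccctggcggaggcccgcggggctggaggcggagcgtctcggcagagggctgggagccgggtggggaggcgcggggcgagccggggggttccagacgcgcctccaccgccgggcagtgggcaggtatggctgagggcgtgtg
ADAM17 promoter (GRCh38.p14, chr2:9555781-9556080): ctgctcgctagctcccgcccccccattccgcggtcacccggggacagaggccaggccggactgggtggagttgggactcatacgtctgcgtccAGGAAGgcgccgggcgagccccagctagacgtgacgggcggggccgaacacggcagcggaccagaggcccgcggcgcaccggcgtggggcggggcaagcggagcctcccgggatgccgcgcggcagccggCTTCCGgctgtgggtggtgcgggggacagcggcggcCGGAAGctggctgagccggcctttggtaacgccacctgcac
The ADAM19 window held 0 matches to the hexamers and 2 to GGAA. The ADAM17 window held 3 hexamer matches, which 4.73% of promoters reach or exceed, and 4 to GGAA, where ADAM8 held 5. Its CGGAAG matches lay 27 bases before the start, on the other strand, and at base 10 after it, and its AGGAAG match began 157 bases before it. ADAM12 held 1 AGGAAG match, on the other strand, and ADAM8 and ADAM15 held 0. A match describes letters in this window and says nothing about binding.

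With GFP-ERG, RWPE1 cells carried more mRNA of the secreted proteases ADAMTS4 and ADAMTS9 and of the membrane protease ADAM19. These 3 genes rose at 48 h and again at 72 h, and no probe of the other 7 genes passed the test in either direction. ADAMTS4 rose 1.98-fold at 48 h and 1.86-fold at 72 h, and ADAMTS9 rose 1.79-fold and 1.25-fold. The GFP arrays of ADAMTS4 and ADAMTS9 lay between the 14th and 36th percentile of all probes, a dim range in which folds may understate the change in RNA. ADAM19 rose 1.31-fold at 48 h and 1.63-fold at 72 h. A call here is an adjusted p of at most 0.05 in limma's moderated test, fitted over all 20589 probes with Benjamini-Hochberg adjustment. Of the 11 probes, 3 were called higher at each time, where 4.21% of all probes were called higher at 48 h and 2.88% at 72 h. Lower calls numbered 0 of 11 at each time, against 3.56% and 2.79% of all probes. Averaged over the times, the same 3 rose (6.01% of all probes) and 0 fell (5.11%). The median log2 difference of the 11 probes was 0.08 at 48 h and 0.05 at 72 h, and that of all probes was 0.00 at both times. As the genes were chosen with earlier results of these data known, these contrasts with all probes are a description only.

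**Figure D1:**
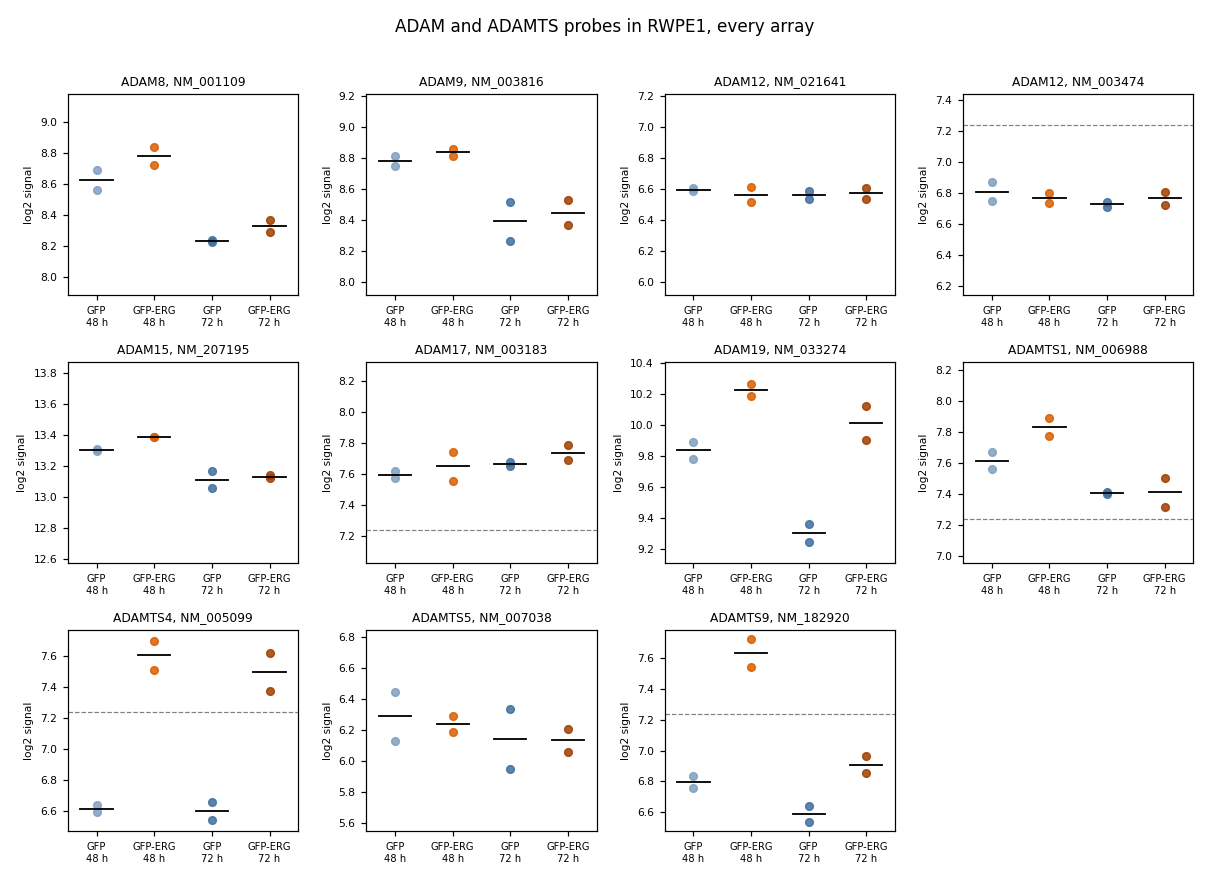
Log2 signal of the 11 RWPE1 probes of ADAM and ADAMTS genes on every array, by group and time. Points are single arrays, black bars are means of 2 arrays, and the dashed line is the highest array median (7.24). Both GFP-ERG pairs lie above both GFP pairs for ADAMTS4, ADAMTS9 and ADAM19.

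ADAMTS4 (also called aggrecanase 1) cuts aggrecan, versican and brevican. Its probe read 6.63 and 6.59 with GFP at 48 h and 7.70 and 7.51 with GFP-ERG. At 72 h it read 6.54 and 6.66 with GFP and 7.62 and 7.37 with GFP-ERG. All 4 GFP arrays lay below the median of all probes and all 4 GFP-ERG arrays above it, with no overlap. The log2 difference was 0.99 (SE 0.08, adjusted p = 1.763e-08) at 48 h and 0.90 (SE 0.08, adjusted p = 8.539e-08) at 72 h. The change between the times was -0.09 (95% confidence interval -0.33 to 0.15, adjusted p = 0.8862).

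ADAMTS9, a versican- and aggrecan-cleaving protease with a long row of thrombospondin repeats, was highest with GFP-ERG at 48 h. It read 6.75 and 6.84 with GFP at 48 h and 7.72 and 7.55 with GFP-ERG. At 72 h the arrays gave 6.64 and 6.53 with GFP and 6.96 and 6.85 with GFP-ERG. The groups did not overlap at either time, but at 72 h the GFP-ERG arrays lay only just above the GFP arrays of 48 h. The log2 difference was 0.84 (SE 0.07, adjusted p = 4.716e-08) at 48 h and 0.32 (SE 0.07, adjusted p = 0.007804) at 72 h. Without GFP-ERG array 1 or GFP array 2 of 72 h, the 72 h difference became 0.27 and no longer passed (adjusted p = 0.1352 and 0.156).

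The effect on ADAMTS9 was smaller at 72 h than at 48 h, with a log2 difference between the effects of -0.52 (SE 0.10, 95% confidence interval -0.73 to -0.30). This was the only one of the 11 probes that passed the test of the difference between the times (adjusted p = 0.02491), for which 0.243% of all probes were called lower and 0.16% higher. The call depended on single arrays. Leaving out GFP-ERG 48 h array 1, GFP-ERG 72 h array 2 or any 1 of the 4 GFP arrays gave differences of -0.57 to -0.43 and adjusted p from 0.06196 to 0.1772. The ERG probe moved in the same sense, by -0.32 between the times (adjusted p = 0.2181), and its part in the ADAMTS9 difference was not tested.

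ADAM19 (meltrin beta), which can release neuregulin, read 9.89 and 9.78 with GFP at 48 h and 10.27 and 10.19 with GFP-ERG. At 72 h it read 9.25 and 9.36 with GFP and 9.90 and 10.12 with GFP-ERG. The order of the groups was GFP-ERG 48 h, GFP-ERG 72 h, GFP 48 h and GFP 72 h, and the GFP-ERG 72 h and GFP 48 h arrays nearly touched. The log2 difference was 0.39 (SE 0.08, adjusted p = 0.00148) at 48 h and 0.71 (SE 0.08, adjusted p = 1.115e-06) at 72 h. The value was higher at 72 h, where that of ADAMTS9 was lower, but the ADAM19 difference between the times, 0.32 (SE 0.11, 95% confidence interval 0.09 to 0.54), did not pass over all probes (adjusted p = 0.3133).

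ADAMTS1, a secreted protease that cuts versican and aggrecan, read 7.67 and 7.56 with GFP and 7.89 and 7.78 with GFP-ERG at 48 h. Those arrays did not overlap, yet the difference of 0.22 (SE 0.07) missed the threshold (adjusted p = 0.07356). At 72 h the GFP arrays read 7.42 and 7.40 and the GFP-ERG arrays 7.32 and 7.51, with a difference of 0.00 (95% confidence interval -0.15 to 0.15, adjusted p = 0.9923). ADAMTS5, the other main aggrecanase, read between 5.95 and 6.45 on all 8 arrays, at the foot of the scale, where little change can be read.

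Among the membrane proteases, ADAM8, best known from leukocytes and invasive tumours, read 8.69 and 8.56 with GFP and 8.72 and 8.84 with GFP-ERG at 48 h. At 72 h it read 8.23 and 8.22 with GFP and 8.28 and 8.36 with GFP-ERG. The groups did not overlap at either time, and the mean difference of 0.13 (95% confidence interval 0.03 to 0.23) did not pass (adjusted p = 0.1054). ADAM17, the TNF-alpha converting enzyme, lay between 7.56 and 7.79 on all arrays, with a mean difference of 0.06 (95% confidence interval -0.04 to 0.17, adjusted p = 0.5075). ADAM9, a widely expressed sheddase, differed by 0.06 (95% confidence interval -0.06 to 0.17, adjusted p = 0.6378). ADAM15, whose disintegrin domain carries an integrin-binding RGD motif, read from 13.06 to 13.39, near the top of the scale, and differed by 0.05 (95% confidence interval -0.04 to 0.14, adjusted p = 0.5853). ADAM12 is made as a long membrane form, which the NM_003474 probe stands for, and a short secreted form, represented by NM_021641. The long form read 6.71 to 6.87 and the short form 6.52 to 6.62, all below the array medians, with mean differences of 0.00 and -0.01.

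Groups of 2 arrays separate often by themselves, and the genes were chosen with earlier results of these data known. At 48 h, 7 of the 11 probes had both GFP-ERG arrays above both GFP arrays (ADAM8, ADAM9, ADAM15, ADAM19, ADAMTS1, ADAMTS4 and ADAMTS9), where 22.9% of all probes did, and 0 had the opposite, against 23.2%. At 72 h it was 5 of 11 (ADAM8, ADAM17, ADAM19, ADAMTS4 and ADAMTS9), against 23.5% of all probes, and 0 the opposite, against 23.2%. Over all 8 arrays, ADAMTS4, ADAMTS9 and ADAM19 were the 3 whose 4 GFP-ERG arrays lay above all 4 GFP arrays, against 3.89% of all probes, and 0 lay below, against 3.79%.

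**Figure D2:**
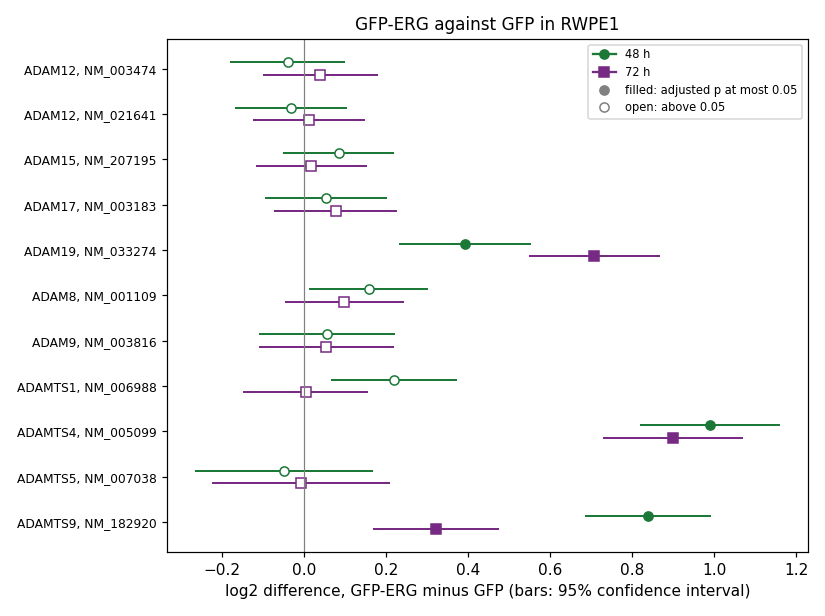
Log2 difference, GFP-ERG minus GFP in RWPE1, for each ADAM and ADAMTS probe at 48 h (green circles) and 72 h (purple squares), with 95% confidence intervals from limma; filled symbols have an adjusted p of at most 0.05. ADAMTS4 lies near 0.9 to 1.0 at both times, ADAMTS9 drops from 0.84 to 0.32, and ADAM19 goes from 0.39 to 0.71.

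Markers of other cell types moved with GFP-ERG beside these 3 genes. Over both times, 6.01% of all probes rose and 5.11% fell. Of 6 endothelial markers, TEK and CLDN5 rose, by 0.73 and 0.32 over both times, while PECAM1, CDH5, VWF and KDR lay below the array medians on average and did not pass. The summed log2 signal of the 6 was 43.2 with GFP-ERG against 41.7 to 41.9 with GFP at 48 h, and 41.0 to 41.6 against 40.4 to 40.5 at 72 h. Of 5 leukocyte probes, CD14 alone rose, by 1.03, and their sum was 34.7 to 35.2 with GFP-ERG against 33.6 to 33.9 with GFP over both times. Of 7 fibroblast probes, 1 fell, for DCN. The part of these markers in the protease differences was not tested.

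Between 48 h and 72 h, 6 of the 10 proteases went down with either construct. ADAM8, ADAM9, ADAM15, ADAM19, ADAMTS1 and ADAMTS9 fell in GFP cells, and the same 6 genes fell in GFP-ERG cells, which were measured on other arrays. ADAM17, ADAM12, ADAMTS4 and ADAMTS5 did not pass in either. In GFP cells 6 of 11 probes were called lower and 0 higher, against 10.5% of all probes in each direction. In GFP-ERG cells 6 were lower and 0 higher, against 11.5% and 11.6%. Without overlap between the times, 7 were lower and 1 higher in GFP cells (27.5% and 28.5% of all probes), and 6 and 0 in GFP-ERG cells (27.3% and 28.3%). The median log2 difference of the 11 was -0.19 in GFP and -0.22 in GFP-ERG cells, and that of all probes was 0.00 in both. Here too the contrasts with all probes are a description, given how the genes were chosen. Time after transfection and harvest cannot be told apart here. Markers of several cell types moved over the same interval, those of prostate epithelium among them. Of 3 basal probes, 1 rose and 1 fell in GFP cells, and 2 rose and 0 fell in GFP-ERG cells. Of 6 luminal probes, 2 rose in GFP and 1 in GFP-ERG cells, and 0 fell. KRT5 rose by 0.49 in GFP cells. Of 7 fibroblast probes, 3 rose and 0 fell with either construct, COL1A1 by 0.61 in GFP and 0.55 in GFP-ERG cells and the brightest DCN probe by 0.44 and 0.24. Their summed log2 signal went from 48.6 to between 49.9 and 50.1 in GFP cells and from 48.3 to 48.6 to between 49.1 and 49.3 in GFP-ERG cells. Of 6 endothelial probes, 0 rose and 2 fell with either construct, with log2 differences of -0.89 and -1.03 for CLDN5 and of -0.53 and -0.64 for TEK, and none of 5 leukocyte probes passed. The part of these markers in the fall of the proteases was not tested.

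ADAM8 showed the fall plainly. It dropped by 0.39 (SE 0.07, adjusted p = 0.0001869) in GFP and by 0.45 (adjusted p = 3.295e-05) in GFP-ERG cells. ADAM9 read 8.81 and 8.75 at 48 h and 8.52 and 8.27 at 72 h with GFP, and 8.86 and 8.82 against 8.53 and 8.37 with GFP-ERG. The groups did not overlap, and it fell by 0.39 in each (SE 0.08, adjusted p = 0.0008841 and 0.0007323). ADAM15 read 13.31 and 13.30 at 48 h against 13.06 and 13.17 at 72 h with GFP, a fall by 0.19 (adjusted p = 0.03863). With GFP-ERG both 48 h arrays read 13.39 and the 72 h arrays 13.12 and 13.14, a fall by 0.26 (adjusted p = 0.004837).

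ADAMTS9 fell by 0.21 in GFP (adjusted p = 0.04575) and by 0.73 in GFP-ERG cells (SE 0.07, adjusted p = 1.68e-07). The gap between those 2 changes is the difference of the GFP-ERG effect given above. ADAM19 fell by 0.53 in GFP (adjusted p = 1.983e-05) and by 0.22 in GFP-ERG cells (adjusted p = 0.04395). ADAMTS1 fell by 0.21 (adjusted p = 0.048) and by 0.42 (adjusted p = 0.0001481). The falls close to the threshold rest on single arrays. In GFP cells, leaving out any 1 of the 4 GFP arrays ended the call for ADAMTS1 and for ADAMTS9 (adjusted p from 0.0547 to 0.3375), and ADAM15 lost its call without either 48 h array or 72 h array 1 (up to 0.29). Without either GFP 48 h array, the number of probes that fell in GFP cells went from 6 to 3. Without GFP 72 h array 1, ADAMTS5 passed instead, with a difference of -0.34 (adjusted p = 0.0351). For ADAM19 in GFP-ERG cells the call ended without GFP-ERG 48 h array 1 (adjusted p = 0.2082), GFP-ERG 72 h array 1 (0.5034), GFP-ERG 48 h array 2 (0.05192) or either GFP 48 h array (0.05276), and with the array number as a block (0.05192). The same block gave an adjusted p of 0.05961 for ADAMTS1 in GFP cells.

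**Figure D3:**
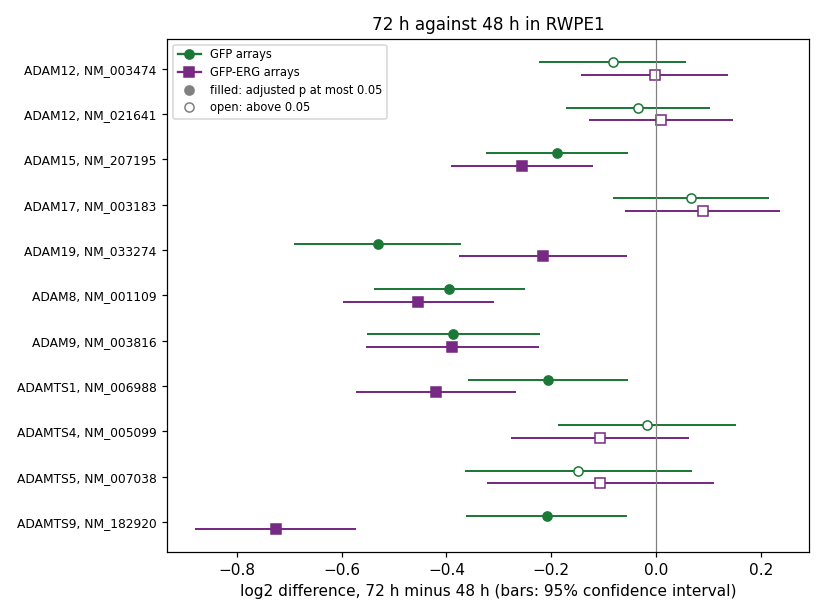
Log2 difference, 72 h minus 48 h in RWPE1, for each ADAM and ADAMTS probe in GFP arrays (green circles) and GFP-ERG arrays (purple squares), with 95% confidence intervals from limma; filled symbols have an adjusted p of at most 0.05. The 6 filled genes are the same in both, and ADAMTS9 (-0.21 and -0.73) and ADAM19 (-0.53 and -0.22) differ between them in opposite order.

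The probes whose pattern over the 8 RWPE1 arrays was most like that of ADAMTS4 were those of LCN2 (Pearson r = 0.988), SH2D3C (0.987), EBI3 (0.985), C1QTNF5 (0.984) and CXCL1 (0.984). LCN2 encodes an iron-siderophore-binding defence protein, EBI3 a cytokine subunit and CXCL1 a neutrophil chemokine. For ADAM19 they were IDH2 (0.981), SAMD14 (0.974), SRPX (0.973), PLAGL2 (0.973) and CD63 (0.972). The 8 arrays are 4 pairs, so these values describe agreement over 4 conditions.

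The few other ADAM and ADAMTS genes that passed with GFP-ERG over both times fell, where 6.01% of all probes rose and 5.11% fell. In that comparison, 0 probes rose and 2 fell of 16 for other ADAM genes, of which 13 lay below the median level. ADAM18, described as a sperm surface protein, fell by 0.55 (SE 0.06, adjusted p = 6.982e-07) and ADAM23, which lacks a working catalytic site, fell by 0.24. Of 15 probes of other ADAMTS genes, 13 of which lay below the median level, 0 rose and 2 fell. ADAMTS17 fell by 0.45 (SE 0.05, adjusted p = 1.443e-06) and ADAMTS6 by 0.23 (adjusted p = 0.004867). Little change can be read for the dim probes. None of 7 ADAMTS-like probes, for secreted relatives with no protease domain, passed (ADAMTSL4 0.10, ADAMTSL5 -0.09). At 48 h alone ADAM32, whose probe is dim, was higher by 0.27 (adjusted p = 0.04303).

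The inhibitors did not move as one. Of 6 probes, 3 rose and 1 fell over both times, where 6.01% of all probes rose and 5.11% fell. TIMP3 fell by 0.25 (SE 0.05, adjusted p = 0.002642), while TIMP2 rose by 0.19, the membrane-bound inhibitor RECK by 0.18 and TIMP4 by 0.17. Of 15 probes for factors that mature or carry ADAM proteases, 4 rose and 2 fell. FRMD8, which stabilises the escort proteins of ADAM17, rose by 0.25, and TSPAN14, a tetraspanin partner of ADAM10, rose by 0.24. RHBDF2, which encodes an ADAM17 escort, had 2 probes that disagreed, one 0.24 higher and one 0.26 lower, so no direction is given for it.

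Substrates of the membrane proteases included some of the largest changes in these lists. Over both times, 6.01% of all probes rose and 5.11% fell. Of 9 probes for ligands of the epidermal growth factor receptor family that ADAM proteases release, 1 rose and 2 fell over both times. A probe of HBEGF rose by 0.90 (SE 0.05, adjusted p = 7.866e-12), whereas a probe of NRG1 fell by 0.33 and a probe of EREG by 0.18. The 9 probes stand for 6 genes, and no other of these probes passed. Of 29 probes for other shed membrane proteins, 8 rose and 1 fell. The chemokine CXCL16 rose by 1.00 (SE 0.05, adjusted p = 4.977e-13), TNF by 0.81 (adjusted p = 8.894e-11) and the adhesion molecule ICAM1 by 0.35. One APP probe rose by 1.70 (SE 0.07), but the other differed by 0.15 (adjusted p = 0.1641). For the difference between the times, CXCL16 (-0.60, adjusted p = 0.001525) and TGFA (-0.44, adjusted p = 0.03477) passed, both with smaller values at 72 h.

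Of 15 probes for matrix substrates of ADAMTS proteases, 2 rose and 2 fell with GFP-ERG over both times (6.01% and 5.11% of all probes). The basement membrane protein NID1 rose by 0.29 and the proteoglycan BGN by 0.26, and a DCN probe fell by 0.26 and NID2 by 0.21. Of 11 integrin probes, only that of ITGB3 passed, with a fall by 0.40 (SE 0.05, adjusted p = 8.169e-06). 

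Between 48 h and 72 h, probes of the same lists passed in both directions. Of all probes, 10.5% were called in each direction in GFP cells, and 11.6% higher and 11.5% lower in GFP-ERG cells. A few calls in a short list are therefore not read as a result about that list. Of 29 probes for other shed membrane proteins, 6 rose and 5 fell in GFP cells, and 5 rose and 6 fell in GFP-ERG cells. Of 15 matrix substrate probes, 4 rose and 1 fell in GFP cells and 6 rose and 2 fell in GFP-ERG cells, and of 11 integrin probes 4 fell in each, with 0 and 1 higher. Of 6 inhibitor probes, 1 fell in each, of 15 maturation and trafficking probes 2 rose and 3 fell in each, and of 16 other ADAM probes 1 rose and 3 fell in each. Of 15 other ADAMTS probes, 2 fell in GFP cells and 1 in GFP-ERG cells. In GFP and then GFP-ERG cells, the log2 difference was -1.05 and -1.10 for ADAMTS6, -0.57 and -0.61 for TIMP2, and -0.92 and -0.85 for TSPAN5, a further ADAM10 partner, all of which passed. ADAM10, the widely expressed sheddase closest to ADAM17, rose by 0.30 and 0.23 (adjusted p = 0.003078 and 0.01769). NOTCH1, a receptor that ADAM10 and ADAM17 cut, rose by 1.18 and 0.99, while its ligand DLL1, also shed, fell by 0.89 and 0.98. VCAN, the versican that several ADAMTS proteases cut, rose by 0.95 and 0.87. The integrin ITGB5 fell by 0.61 and 0.56.

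In VCaP, ADAM15 probes read lower and ADAM19 higher on the arrays labelled ERG shRNA, but 0 of the 14 probes passed the test. There, 2.93% of all 24525 probes were called (1.39% higher and 1.54% lower), and 4831 probes had an unadjusted p under 0.05, among them those of ADAM19 and 2 of ADAM15. The smallest adjusted p over all probes was 0.0205. The median log2 difference was -0.03 over the 14 probes and 0.00 over all probes.

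**Figure D4:**
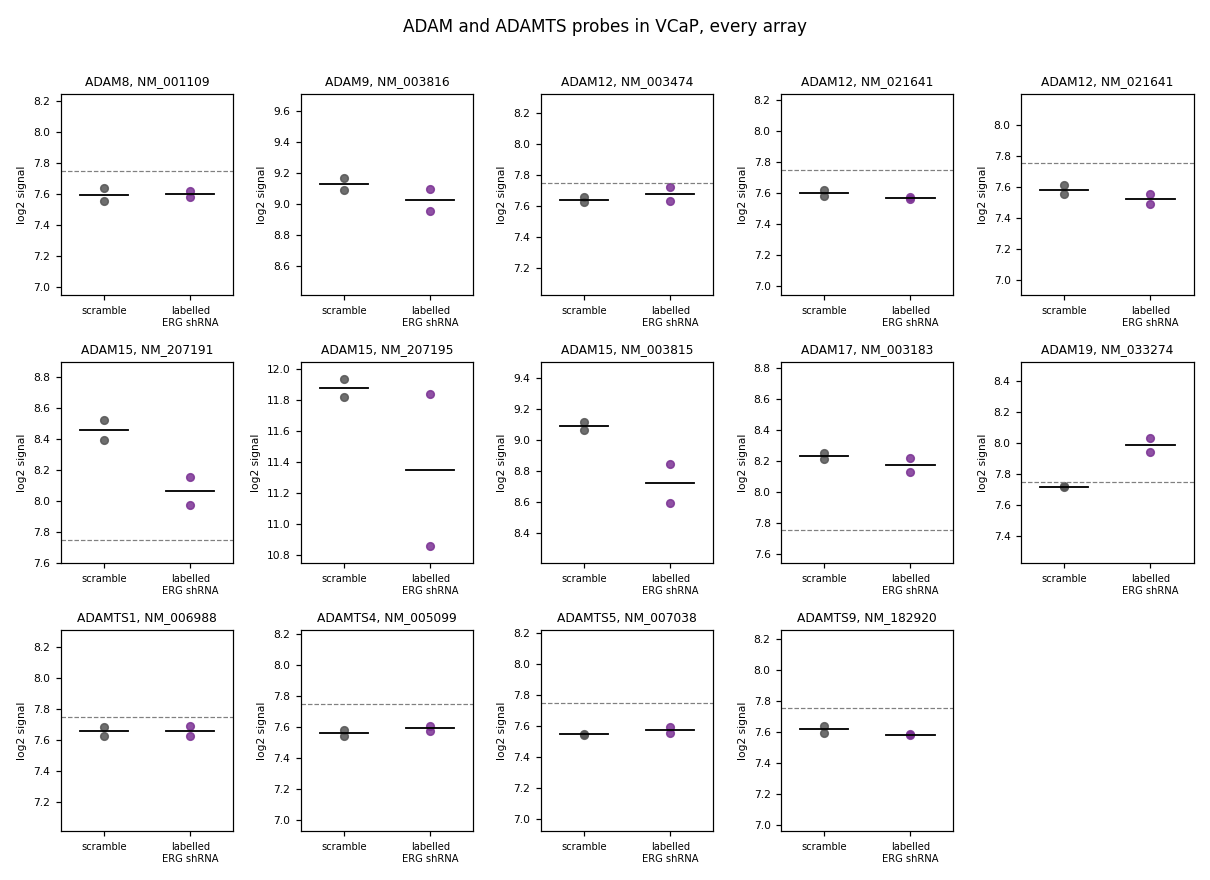
Log2 signal of the 14 VCaP probes of ADAM and ADAMTS genes on every array. Points are single arrays, black bars are means of 2 arrays, and the dashed line is the array median (7.75). The ADAM19 scramble arrays lie just below the median and its labelled ERG shRNA arrays above it, 2 of the 3 ADAM15 probes separate the pairs above the median, and 8 probes lie below the median on all arrays.

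ADAM19 read 7.94 and 8.03 on the arrays labelled ERG shRNA and 7.72 and 7.72 with scramble. The scramble pair sat at the level of the median probe, and the pairs did not overlap. The difference of 0.27 (SE 0.04, 95% confidence interval 0.14 to 0.39) had an adjusted p of 0.08686. It passed with a trended, robust variance (adjusted p = 0.008349), under which 2015 of all VCaP probes passed against 719 in the main fit. Without labelled ERG shRNA array 1, which leaves 1 array in that group, the difference was 0.31.

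ADAM15 had 3 probes, for different transcripts. The NM_207191 probe read 7.97 and 8.15 on the labelled arrays and 8.39 and 8.52 with scramble, a difference of -0.40 (SE 0.09, adjusted p = 0.1417, and 0.02662 with a trended, robust variance). The NM_003815 probe read 8.59 and 8.85 against 9.12 and 9.07, a difference of -0.37 (SE 0.10, adjusted p = 0.1938). The brightest, for NM_207195, read 10.86 and 11.84 against 11.82 and 11.93. There only array 1 of the labelled pair was low, and the difference of -0.53 (SE 0.38, 95% confidence interval -1.67 to 0.61) became -0.04 without it. The labelled pair was the one with the wide spread. Without its array 2, which leaves only the lower array 1, the NM_207195 and NM_003815 differences were -1.02 and -0.50.

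ADAM9 read 8.96 and 9.10 against 9.17 and 9.09 (difference -0.10, 95% confidence interval -0.30 to 0.09), and ADAM17 8.12 and 8.22 against 8.21 and 8.25 (-0.06, -0.20 to 0.08). The 8 probes of ADAM8, ADAM12, ADAMTS1, ADAMTS4, ADAMTS5 and ADAMTS9 lay between 7.49 and 7.72, under the array median, with differences of -0.06 to 0.04. ADAMTS4 and ADAMTS9, which rose with GFP-ERG in RWPE1, thus read near the foot of the VCaP scale in both groups, where little change can be read. Of all 14 probes, 2 had the labelled pair above and 5 below the scramble pair, against 27.8% and 23.5% of all probes. Of the other lists, TSPAN5 was the only probe to pass, with a fall by 0.85 (SE 0.09, adjusted p = 0.04893), and among prostate markers KLK3 fell by 0.69 (adjusted p = 0.04534). Neither call held with the array number as a block or without either scramble array, settings under which 0 of all VCaP probes passed.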

How the data were processed

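Per the labels, biotin-labelled total RNA was hybridised to 1-colour Illumina arrays. The values the authors deposited were read as log2 signals from their range (5.95 to 15.1 in RWPE1 and 7.44 to 15.4 in VCaP), and fold changes rest on that reading. The authors' software, background correction and normalization were not given in the sources used here. Sorted values of the arrays of a table lay within 0.0391 (RWPE1) and 0.0002 (VCaP) of their mean, and the values were used as deposited. Array medians (7.23 to 7.24, and 7.75) lie near the bottom of the scale, where folds understate changes in RNA. Detection p-values were not used here.

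Probes were named from the platform annotation, with symbols checked through Entrez identifiers in the GRCh38.p14 RefSeq table (0 changed). In RWPE1, 18332 probes had 1 symbol, 0 several and 2257 none, and in VCaP 21833, 0 and 2692. There were 0 columns of other samples. Differences were fitted per probe within each table with limma 3.58.1 in R 4.3.3 (lmFit, contrasts.fit, eBayes, no trend), 2-sided, with Benjamini-Hochberg adjustment over all probes. Python 3.11.15, pandas 2.3.3 and matplotlib 3.10.9 were also used. Tests gave 7 comparisons, with a different variance model, dim-probe filter, normalization, probe choice, array block and left-out arrays as alternatives. All probes of the 10 genes and of ERG were named. Of every other list the probes named passed, up to 4 with the largest change, or were the 2 brightest, and for likeness the 5 highest correlations were taken. The members and lists were chosen with earlier results of these data known. The p-values rest on the spread between the 2 arrays of each group, pooled over all groups of a table and moderated by limma across probes. An array outside a comparison can therefore change its p-value. That spread may be technical, and 2 arrays per group limit how precise the p-values are. Simulated data had 200 changed probes. Of 20589 probes, the 48 h fit recovered 86% of changes of 0.5 log2 units and 0% of 0.25. The VCaP fit, on 24525 probes, recovered 74.5% of changes of 1 and 0% of 0.5. These shares hold for 200 changed probes with spreads shuffled over the probes and set no lower limit for the data. The data held more calls (719 in VCaP and 1599 at 48 h). Smaller differences passed there, such as 0.40 for an ERG probe in VCaP and 0.21 for TSPAN14 at 48 h.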

Additional observations from a re-analysis of the deposited data

Results flagged for a closer look

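The GFP-ERG effect on ADAMTS9 differed between the times by -0.52 (log2 difference at 72 h minus that at 48 h, limma's adjusted p = 0.02491). Both GFP-ERG pairs lay above their GFP pairs, so the effect was positive at both times, 0.84 and 0.32. The adjusted p ranged up to 0.1772 when single arrays were left out.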

How the results depend on the processing

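Of the differences of single ADAM and ADAMTS probes, those called kept their direction and call in 251 alternative fits and lost the call in 26, and those not called stayed so in 653 and passed in 6. The direction of a called difference was reversed in 0. With probes below the median level left out, 6 of the 11 RWPE1 probes remained, and the number called went from 3 to 1 (ADAM19) at 48 h, at 72 h and over both times, and from 1 to 0 for the difference between the times. ADAMTS4 and ADAMTS9 fall outside that filter. In VCaP the number called went from 0 to 2 with a trended, robust variance. With each array left out in turn it was 0 to 2 in VCaP, 3 at 48 h, 2 to 3 at 72 h, 3 over both times and 0 to 1 for the difference between times. For 72 h against 48 h it was 3 to 6 in GFP and 5 to 6 in GFP-ERG cells. Array numbers are shared between groups, and the main fits did not pair arrays by them. Over all probes, deviations of same-numbered arrays correlated at -0.05 to 0.07 in RWPE1 and 0.17 in VCaP. Whether same-numbered arrays shared a batch was not tested. With the replicate block, calls over all probes went from 719 to 0 in VCaP, from 83 to 65 for the difference between times and from 1599 to 1523 at 48 h. Over all VCaP probes, the count was 2015 with a trended, robust variance, 1197 with dim probes left out and 0 to 2728 with single arrays left out. Over all RWPE1 probes, single arrays left out gave 902 to 1544 at 48 h, 592 to 1367 at 72 h, 34 to 137 for the difference between times and 2853 to 4637 for time in GFP cells. The causes of these shifts were not tested.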
